A study of Mus musculus with 9 samples.

Results

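The genes described here encode the subunits of the proteasome and the proteins that activate, inhibit or assemble it. The rule that defines them uses names: every gene whose symbol begins with Psm, a letter from a to g and a number was taken, and 49 of the 22180 genes with a symbol of their own met that rule. Where a gene had more than 1 array feature, which was the case for Psma5, Psmc2 and Psmg2, the feature whose mean signal was highest was used. Of the 49 genes, 47 encode a subunit or a factor that acts on the particle, and 2 are named after a partner: Psmc3ip, whose protein acts in homologous recombination, and Psme3ip1, whose protein binds the activator encoded by Psme3. The constitutive core gene Psma4 was measured only by features that also carry another symbol, and is not counted. All samples come from wild-type CD1 mice, from embryonic cortex at days 12 to 13, when its precursors begin to make neurons. Lysate was precipitated with rabbit antibody to Pum2, an RNA-binding protein of the Pumilio family known as a repressor of translation, or with normal rabbit IgG, which gives the level of nonspecific recovery, and total RNA that was not precipitated served as input. There were 3 biological replicates each of input, IgG and Pum2, and the labels do not say how many embryos were pooled for each. The labels name no transgene, deletion or drug in any group.

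The proteasome is the protease that degrades proteins tagged with ubiquitin in the cytoplasm and nucleus of every cell. Its barrel-shaped core is built of alpha subunits (Psma genes), whose rings gate the entrance, and beta subunits (Psmb genes), of which those encoded by Psmb5, Psmb6 and Psmb7 cut peptide bonds. The regulatory particle sits on the end of the core: its base holds a ring of ATPases (Psmc genes) that unfold the substrate, and its lid and the rest of the base (Psmd genes) bind ubiquitin chains and remove them. Other proteins open the core in place of the regulatory particle (Psme genes), inhibit it (Psmf1) or help to assemble the core (Psmg genes). In dividing precursors and in neurons alike the particle is needed throughout life, and most of its subunits are made in fixed proportion to one another.

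Proteasome genes are known to be induced together by the transcription factor encoded by Nfe2l1, which binds antioxidant response elements, so promoter sequence is shown first as what the members might share beyond their names. RefSeq promoters of GRCm38.p6, taken as 250 bases before to 50 bases after the start of a gene, were found for 41 of the 49 genes. The core of the element was searched as TGACNNNGC, or GCNNNGTCA for the other strand, and no other motif was searched. A match was present in 6 of the 41 promoters (14.6%) and in 14.0% of the 27025 genes with a promoter of the same length. It was present in 4 of 27 members that were higher with Pum2 than with IgG (14.8%) and in 2 of the other 14 (14.3%). These letters were thus about as frequent in the members as in all promoters, and a match is a description of sequence, not a site of binding. Of the 6 matches, 3 lie on the strand opposite to the gene, in Psmc6, Psmd12 and Psme4. Those in the catalytic subunit genes Psmb5 and Psmb6 and in the base chaperone gene Psmd9 lie on the strand of the gene, 47 to 39, 9 to 1 and 31 to 23 bases before its start. They are shown with up to 20 bases on each side and none past the start, 5′ to 3′ on the strand of the gene, with the match in capitals, for chr14:54618014-54618062 (- strand), chr11:70525328-70525356 (+ strand) and chr5:123228139-123228187 (+ strand).
Psmb5: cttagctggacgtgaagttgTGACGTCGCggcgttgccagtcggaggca
Psmb6: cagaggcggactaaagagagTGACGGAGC
Psmd9: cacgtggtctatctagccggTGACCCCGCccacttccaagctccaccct

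By position, the members lie on 15 chromosomes. In the RefSeq gene order Psmb5 is next to Psmb11 on chromosome 14, only Emc9 lies between Psme1 and Psme2 on the same chromosome, and only Tap1 lies between Psmb9 and Psmb8 on chromosome 17 among protein-coding genes.

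Values are log2 signals made by the RMA method (robust multi-array average), so a difference of 1 is a doubling on the scale of the array, and they are relative to the other RNA on the same array. The amount of RNA that each precipitation recovered was not used here. Differences are given ± their standard error from limma with 3 arrays a group, and the labels do not say how the replicates were kept separate beyond calling them biological, so p-values measure the spread between these arrays. The groups are precipitated or total RNA of cortex lysate, so differences between them do not count cells. In the signal of a group, fewer cells that hold a transcript and less of it in each cell cannot be told apart. The median SD between replicates over the 49 members was 0.067 on input, 0.11 on IgG and 0.088 on Pum2 arrays, against 0.11, 0.12 and 0.10 over all genes (n = 3 each). Probes differ in brightness, so levels are a rough guide to signal. For the labelled tissue, 7 measured precursor genes of 8 listed had input means from 8.25 (Hes5) to 10.78 (Sox2), and all 6 young-neuron genes from 8.53 (Tbr1) to 11.02 (Neurod6), where the median gene had 6.08. Of the members, 44 lay at or above the level of that median gene, and Psma5, Psma8, Psmb8, Psmb9 and Psmb11 lay below it. IgG replicate 2 was the lowest of the 3 IgG arrays for 34 of 49 members (69.4%) and for 35.1% of all genes, so results are also given without it. Replicate 2 was also most often the lowest for members in the other groups. Its shares were 40.8% of members and 33.1% of all genes among input arrays, and 49% and 31.7% among Pum2 arrays. For each role, calls that a left-out array, another scaling or another setting of the fit ended, and calls that a left-out array or another scaling added, are given after the values, with the range of log2 differences found there. Calls that the replicate number as a block ended or added are not in those lists and are given in the last section.

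Comparison of the Pum2 precipitate with the IgG precipitate asks which transcripts the antibody brings down beyond background. Most proteasome transcripts were higher with Pum2: 32 of 49 rose and 1, the lid subunit gene Psmd11, fell (limma, adjusted p below 0.05 over all 22180 genes). Over all genes 19.4% were higher and 11.4% lower, and over genes at or above the median level, where most members lie, 34.1% and 18%. The median log2 difference of the members was 0.35, with values from -0.38 (Psmd11) to 0.89 (Psmb3), beside a median of 0.043 over all genes and of 0.12 over genes at or above the median level. Of the 32 rises, 8 reached 1.5-fold. For 34 members all 3 Pum2 arrays lay above all 3 IgG arrays and for 2 they lay below, shares to be read beside 25.9% and 15.4% of all genes and 41.7% and 22.7% of those at or above the median level. Without the 2 partner-named genes, 31 of 47 rose and 1 fell, with the same median.

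Under each of 3 other scalings of the arrays the median of the members stayed above 0 and most of their calls were rises, while the counts differed. With quantile normalization of the whole table run again 33 rose and 2 fell, while the median of all genes moved from 0.043 to 0.19 and that of the members was 0.33, which leaves them 0.14 above all genes in place of 0.31. With each array centred on the brighter genes 21 rose and 2 fell, and with quantile normalization of the named genes alone 20 rose and 4 fell. The share of members' calls that were higher was thus 97% as deposited and 83.3% in the last setting, and the same share over all genes was 63% and 53.5%, 46.9% with centring and 79.1% with the whole table normalized again. Of the 32 rises, 24 were called whichever single array was left out, 19 under each of the 3 scalings and 18 under every alternative run. Without IgG replicate 2, 28 rose and the median was 0.29, 25 rose without Pum2 replicate 3, and without IgG replicate 1 the count of falls was 2, with Psme4 beside Psmd11.

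Comparison with input asks which transcripts the precipitate holds relative to the RNA it started from. Against total RNA the Pum2 precipitate had 13 members higher and 8 lower, with a median of 0.036 beside 0.065 over all genes, of which 21.6% were higher and 13.1% lower. The members' shares, 26.5% and 16.3%, lay above those of all genes and below those of genes at or above the median level, of which 37% were higher and 21.9% lower (median 0.12). With centring on the brighter genes 6 were higher and 10 lower, 37.5% of calls in place of 61.9%, and the median was -0.034. Their values spread from -0.61 (Psmd8) to 0.54 (Psmd13). All 3 Pum2 arrays lay above all 3 input arrays for 19 members and below them for 12, against 28.5% and 16.8% of all genes and 44.4% and 26.5% of those at or above the median level. The count of 13 fell to 7 without input replicate 2, Pum2 replicate 1 or Pum2 replicate 3, and to 8 without input replicate 1.

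Comparison of IgG with input measures what the precipitation does without a specific antibody. Here 22 of 49 members fell and 2 rose, Psmd11 and Psme4, with a median of -0.25 beside 0.016 over all genes, of which 9.72% were lower and 8.25% higher, and beside 17.8% and 13.8% of genes at or above the median level. All 3 IgG arrays lay below all 3 input arrays for 32 members and above them for 3, against 16.2% and 15.9% of all genes and 27.4% and 23.9% of those at or above the median level. Without IgG replicate 2, 17 fell and the median was -0.21, and with the named genes quantile-normalized again 15 fell. Psmd11 was the 1 rise left without input replicate 1 or 3, IgG replicate 2 or 3, or any 1 of the Pum2 arrays. The comparisons share arrays: a low IgG value makes a gene higher in Pum2 over IgG and lower in IgG over input at once, so the values of each comparison are given side by side and are not separate evidence.

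**Figure D1:**
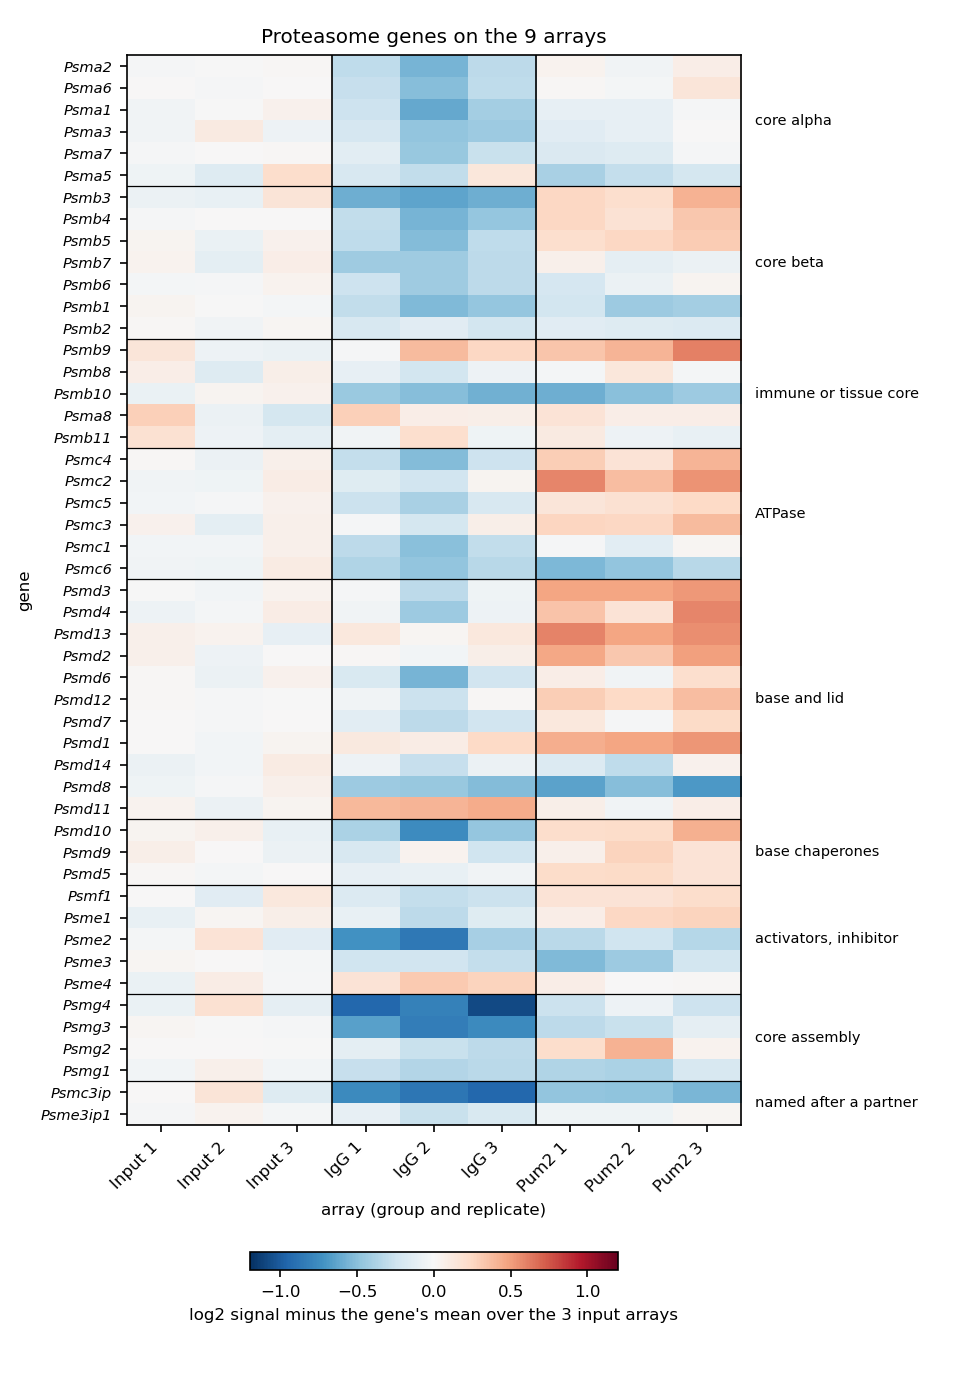
Each row is a proteasome gene, each column an array, and colour gives the log2 signal minus the mean of the gene over the 3 input arrays (blue lower, red higher); lines separate the roles and the 3 groups. The IgG columns are mostly blue, while the Pum2 columns are red for most base and lid genes and near white for the core alpha genes.

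**Figure D2:**
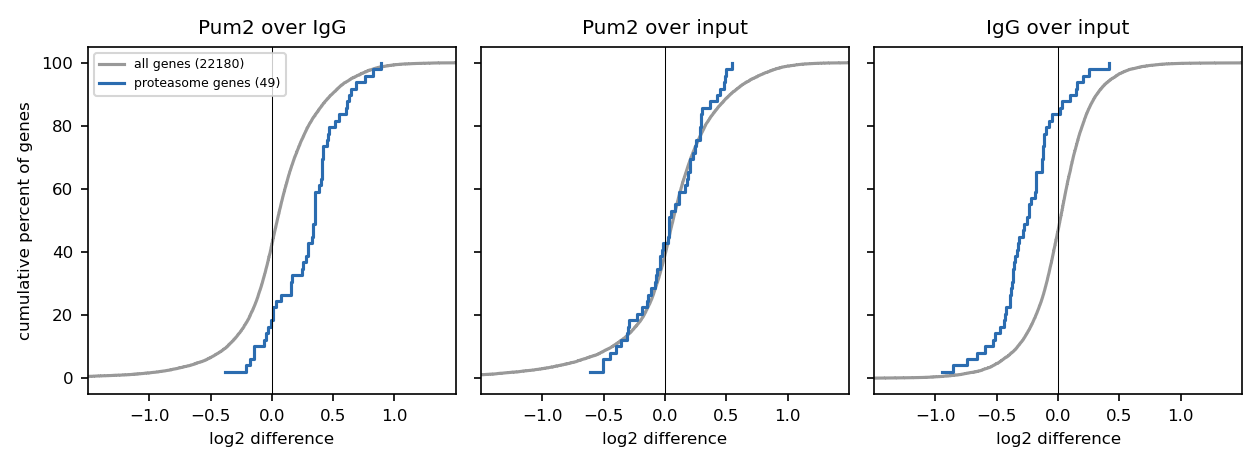
Cumulative percent of genes (vertical axis) against the log2 difference (horizontal axis) for all 22180 genes (grey) and the 49 proteasome genes (blue), in each comparison. The blue curve lies to the right of the grey one in Pum2 over IgG (medians 0.35 and 0.043), near it in Pum2 over input (0.036 and 0.065) and to its left in IgG over input (-0.25 and 0.016); differences beyond 1.5 in size are off the axis.

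The roles were set beside each other by where the arrays stood relative to input. As medians over the genes of a role, each taken as the difference from its own input mean, the 11 base and lid genes stood at 0.30, 0.17 and 0.37 on the Pum2 arrays and the 6 ATPase genes at 0.20, 0.17 and 0.31. The 6 core alpha genes stood at -0.12, -0.098 and -0.0044, and the 4 core assembly genes at -0.29, -0.16 and -0.15. The Pum2 arrays of the first pair of roles were thus all above the input mean and those of the second pair all below it, though core alpha stood at only -0.0044 on Pum2 replicate 3. The median over all genes was itself above the input mean on these arrays, at 0.0605, 0.0622 and 0.0593. On the IgG arrays the same medians were -0.043, -0.28 and -0.047 for base and lid and -0.46, -0.58 and -0.54 for core assembly, so base and lid stood above core assembly with IgG as well. With whole-table quantile normalization the Pum2 over input medians were 0.0007 for core alpha and 0.29 for base and lid. The difference between roles was not tested.

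**Figure D3:**
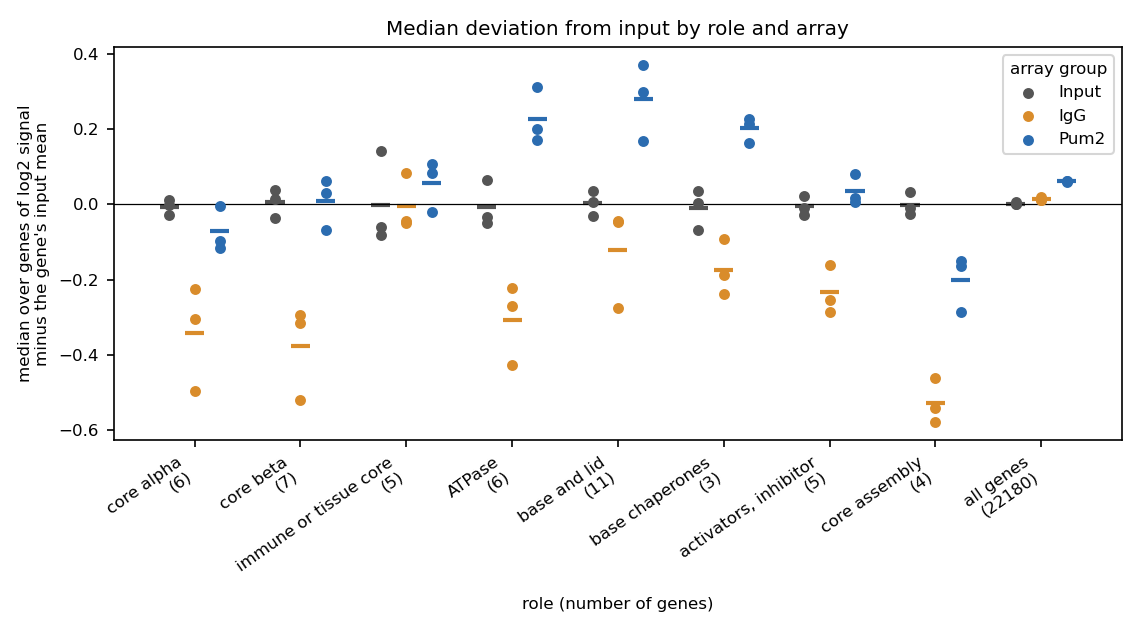
Points give, for each array, the median over the genes of a role of the log2 signal minus the input mean of the gene, and bars the mean of 3 arrays; grey is input, orange IgG and blue Pum2. In every role but the immune or tissue-specific core the IgG points lie below the Pum2 points, and the Pum2 points lie above 0 for the ATPase, base and lid, base chaperone and activator genes; the median of the last over input was -0.036 with centring, and that of core alpha, below 0 here, was 0.0007 with whole-table quantile normalization.

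Of the 6 core alpha genes, which form the outer rings and the gate of the barrel, 4 were higher with Pum2 than with IgG (median 0.32), 0 passed the test against input (median -0.072) and 4 were lower with IgG than in input (median -0.37). Against input, 1 of the 6, Psma5, had an unadjusted p below 0.05 in limma, and with whole-table quantile normalization the median of the 6 was 0.0007. Psma2 measured 10.24, 10.25 and 10.26 on the input arrays, 9.94, 9.69 and 9.94 on the IgG arrays and 10.29, 10.21 and 10.33 on the Pum2 arrays. Its IgG arrays lay below the other 6, which did not separate, and the difference was 0.42 ± 0.09 over IgG (adjusted p = 0.00382) and 0.028 ± 0.09 over input (adjusted p = 0.842). Psma6 measured 11.86, 11.85 and 11.86 on the input arrays, 11.58, 11.34 and 11.55 on the IgG arrays and 11.87, 11.83 and 12.00 on the Pum2 arrays. It had the same pattern, 0.41 ± 0.08 over IgG (adjusted p = 0.00443) and -0.36 ± 0.08 for IgG over input (adjusted p = 0.0143). Psma1 measured 11.44, 11.48 and 11.53 on the input arrays, 11.24, 10.87 and 11.08 on the IgG arrays and 11.39, 11.39 and 11.47 on the Pum2 arrays. Psma3 measured 11.94, 12.09 and 11.92 on the input arrays, 11.78, 11.50 and 11.55 on the IgG arrays and 11.85, 11.88 and 11.99 on the Pum2 arrays. In both the IgG arrays were again the lowest, with differences from Pum2 of 0.35 ± 0.10 and 0.29 ± 0.09 (adjusted p = 0.0172 and 0.0355) and from input of -0.42 ± 0.10 and -0.37 ± 0.09 (adjusted p = 0.0119 and 0.0196). Psma7 gave 0.17 over IgG (adjusted p = 0.218). Psma5 stood below the median gene in level and gave -0.18 over IgG (adjusted p = 0.352) and -0.30 over input (adjusted p = 0.106). Its mean over the 9 arrays was 4.24, where those of the other core alpha genes ran from 10.1 (Psma2) to 11.8 (Psma7). The dimmer feature of Psma5 gave -0.14 ± 0.12 over IgG and 0.13 ± 0.12 over input, so its features disagree in direction over input. Psma1 was not called in Pum2 over IgG without Pum2 replicate 3, or with named-gene quantile normalization or centring (0.26 to 0.33). Psma3 was not called in Pum2 over IgG without IgG replicate 2 or 3 or any 1 of the Pum2 arrays, or with the 2-group fit, centring or every feature tested (0.20 to 0.32), or in IgG over input without input replicate 2 or IgG replicate 2 or 3, or with whole-table quantile normalization or named-gene quantile normalization (-0.34 to -0.23). Psma6 was not called in IgG over input with whole-table quantile normalization or named-gene quantile normalization (-0.23 to -0.22). Psma7 was called in IgG over input without IgG replicate 1 (-0.36).

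The 7 constitutive core beta genes held some of the largest rises. With Pum2 5 were higher than with IgG (median 0.35), 3 were higher and 1 lower than input (median -0.037), and 6 were lower with IgG than in input (median -0.39). Psmb3, a structural subunit of the inner ring, measured 6.65, 6.63 and 6.86 on the input arrays, 6.13, 6.08 and 6.13 on the IgG arrays and 6.96, 6.91 and 7.13 on the Pum2 arrays. Its 3 groups did not overlap, with Pum2 highest and IgG lowest, and it was 1.85-fold higher with Pum2 than with IgG (0.89 ± 0.09, adjusted p = 5.70e-05), the largest rise of the 49 genes. That rise rests on 1 dim feature, with a mean over the 9 arrays of 6.61 beside 6.08 for the median gene. The other constitutive core beta genes had means from 11.11 (Psmb6) to 12.18 (Psmb5). Psmb4, another structural subunit, measured 11.58, 11.60 and 11.60 on the input arrays, 11.30, 11.04 and 11.13 on the IgG arrays and 11.85, 11.77 and 11.92 on the Pum2 arrays. Psmb5, which carries the chymotrypsin-like activity, measured 12.25, 12.13 and 12.27 on the input arrays, 11.91, 11.70 and 11.92 on the IgG arrays and 12.42, 12.47 and 12.52 on the Pum2 arrays. Both had that same order of groups, and rose by 0.69 ± 0.08 and 0.63 ± 0.08 over IgG (adjusted p = 1.81e-04 and 3.12e-04). Over input the rises of Psmb3, Psmb4 and Psmb5 were smaller, 0.29 ± 0.09, 0.25 ± 0.08 and 0.25 ± 0.08 (adjusted p = 0.0295, 0.0427 and 0.0393).

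The other catalytic genes lay closer to input. Psmb7, whose subunit has trypsin-like activity, measured 11.37, 11.20 and 11.40 on the input arrays, 10.89, 10.90 and 11.01 on the IgG arrays and 11.39, 11.22 and 11.26 on the Pum2 arrays. Psmb6, with caspase-like activity, measured 11.23, 11.23 and 11.29 on the input arrays, 11.00, 10.82 and 10.93 on the IgG arrays and 11.05, 11.18 and 11.28 on the Pum2 arrays. In both the IgG arrays were lowest and the Pum2 and input arrays overlapped: over IgG they rose by 0.35 ± 0.08 and 0.25 ± 0.08 (adjusted p = 0.00862 and 0.0421), and over input they stood at -0.037 and -0.079 (adjusted p = 0.783 and 0.523). Psmb1 did not separate from IgG (0.073, adjusted p = 0.592) and fell against input in both precipitates, by 0.36 ± 0.09 with Pum2 and 0.43 ± 0.09 with IgG (adjusted p = 0.0092 and 0.00726). Psmb2 stood at 0.035 over IgG and -0.15 over input with Pum2, and at -0.19 over input with IgG, and did not pass the test (adjusted p = 0.744, 0.107 and 0.0799). Psmb1 was not called in Pum2 over input with named-gene quantile normalization (-0.22), or in IgG over input with named-gene quantile normalization (-0.27). Psmb2 was called in Pum2 over input with centring (-0.22). Psmb3 was not called in Pum2 over input without input replicate 1 or 2 or Pum2 replicate 1 or 3, or with the 2-group fit, named-gene quantile normalization or centring (0.22 to 0.31). Psmb4 was not called in Pum2 over input without any 1 of the input arrays, IgG replicate 3 or Pum2 replicate 1 or 3, or with centring or every feature tested (0.18 to 0.25). Psmb5 was not called in Pum2 over input without any 1 of the input arrays or any 1 of the Pum2 arrays, or with centring or every feature tested (0.18 to 0.28), or in IgG over input with whole-table quantile normalization or named-gene quantile normalization (-0.25 to -0.21). Psmb6 was not called in Pum2 over IgG without any 1 of the input arrays, IgG replicate 2 or 3 or Pum2 replicate 2 or 3, or with the 2-group fit, whole-table quantile normalization, named-gene quantile normalization, centring or every feature tested (0.15 to 0.26), or in IgG over input without input replicate 2 or 3 or IgG replicate 2, or with whole-table quantile normalization or named-gene quantile normalization (-0.34 to -0.25). Psmb7 was not called in Pum2 over IgG with named-gene quantile normalization (0.25).

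Core genes known from particular tissues or from inflammation were 5: the interferon-induced Psmb8, Psmb9 and Psmb10, the thymic Psmb11 and the testis gene Psma8. Of these, 0 passed the test against IgG (limma, median 0.0051), and at an unadjusted p below 0.05 there were also 0. Whole-table quantile normalization called 2 of them higher, Psmb8 and Psmb9, with a median of 0.13, and centring gave a median of -0.090. Psmb9 measured 5.08, 4.88 and 4.86 on the input arrays, 4.92, 5.32 and 5.19 on the IgG arrays and 5.27, 5.35 and 5.55 on the Pum2 arrays. Its Pum2 arrays lay above input by 0.45 ± 0.12 (adjusted p = 0.0132) and overlapped the IgG arrays (0.24, adjusted p = 0.158). Psmb8 measured 5.58, 5.34 and 5.57 on the input arrays, 5.40, 5.27 and 5.44 on the IgG arrays and 5.47, 5.63 and 5.47 on the Pum2 arrays. Psmb11 measured 4.85, 4.61 and 4.55 on the input arrays, 4.63, 4.87 and 4.62 on the IgG arrays and 4.78, 4.61 and 4.58 on the Pum2 arrays. Psma8 measured 4.85, 4.50 and 4.35 on the input arrays, 4.85, 4.65 and 4.64 on the IgG arrays and 4.73, 4.65 and 4.65 on the Pum2 arrays. The groups of Psmb11 and Psma8 overlapped in all 3 comparisons, and the Pum2 arrays of Psmb8 lay above its IgG arrays by 0.16 (adjusted p = 0.247). Psmb10 fell against input in both precipitates, by 0.51 ± 0.08 with Pum2 and 0.51 ± 0.08 with IgG (adjusted p = 4.85e-04 and 0.00145), and gave 0.0051 between them. Of 10 listed immune-cell markers, 9 were measured, with input means from 3.88 (H2-Aa) to 7.16 (Coro1a). Over IgG 3 rose, Coro1a, Csf1r and Laptm5, and the other 6 did not pass the test, among them Aif1 (0.028), Ptprc (0.20) and Cx3cr1 (-0.13). The summed linear signal of the 9 was 559.7 to 595.4 in input, 531 to 583.1 in IgG and 748.8 to 782 in Pum2 arrays. That of the 7 precursor markers was 6158.9 to 6480.1, 6007 to 6475.6 and 8420.1 to 8995.4. Of these 7 genes 4 rose over IgG, while Emx2 (0.18), Hes5 (0.12) and Pax6 (0.0036) did not pass the test, and Hes5 fell against input (-0.34). The sums of 5 endothelial and 4 meningeal markers were also higher with Pum2, at 2371.7 to 2584.3 and 1362.3 to 1554.4 beside 1513.2 to 1595 and 916.3 to 960.3 in input, and 1450.6 to 1963.5 and 959.2 to 1141 in IgG. Those of 6 young-neuron and 3 erythroid markers were not higher with Pum2, at 7533.3 to 7863.4 and 1148.5 to 1969.9. In input they were 7375.1 to 7931.8 and 2181 to 3228.3, and in IgG 8098.2 to 8811.4 and 1514.5 to 3110.3. The genes behind these sums differed. Against input with Pum2, 3 of the 6 young-neuron genes rose, Tbr1 (0.87), Dcx (0.47) and Tubb3 (0.33), and 2 fell, Neurod6 (-0.56) and Stmn2 (-0.47). Over IgG Tbr1 rose (0.34) and Neurod6 fell (-0.76). Of the 3 erythroid genes, Hbb-bh1 and Hba-x fell against input (-1.17 each) and Slc4a1 did not pass the test (0.37). The part of any of these lists in the values of Psmb8, Psmb9 and Psmb10 was not tested. Psmb8 was called in Pum2 over IgG with whole-table quantile normalization (0.34). Psmb9 was not called in Pum2 over input without Pum2 replicate 3 (0.37), and was called in Pum2 over IgG with whole-table quantile normalization (0.41).

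Of the 6 ATPase genes, whose products form the unfolding ring, 5 were higher with Pum2 than with IgG (median 0.41), 3 were higher and 1 lower than input (median 0.24), and 4 were lower with IgG than in input (median -0.32). Psmc4 measured 11.27, 11.18 and 11.32 on the input arrays, 10.97, 10.73 and 11.00 on the IgG arrays and 11.56, 11.42 and 11.67 on the Pum2 arrays. Its groups did not overlap, with IgG lowest and Pum2 highest, and the rises were 0.65 ± 0.10 against IgG and 0.29 ± 0.10 against input (adjusted p = 6.38e-04 and 0.0406). Psmc2 measured 10.27, 10.27 and 10.41 on the input arrays, 10.17, 10.09 and 10.35 on the IgG arrays and 10.90, 10.68 and 10.85 on the Pum2 arrays. Here IgG and input overlapped and Pum2 stood above both, by 0.61 ± 0.09 and 0.50 ± 0.09 (adjusted p = 7.42e-04 and 0.00195). Its dimmer feature also stood above IgG (0.81 ± 0.21). Psmc5 measured 10.90, 10.92 and 10.99 on the input arrays, 10.68, 10.55 and 10.75 on the IgG arrays and 11.08, 11.12 and 11.18 on the Pum2 arrays. Psmc1 measured 10.82, 10.82 and 10.91 on the input arrays, 10.54, 10.35 and 10.55 on the IgG arrays and 10.84, 10.72 and 10.87 on the Pum2 arrays. Over IgG they rose by 0.46 ± 0.08 and 0.33 ± 0.08 (adjusted p = 0.00105 and 0.0117), and in IgG over input they fell by 0.28 ± 0.08 and 0.37 ± 0.08 (adjusted p = 0.029 and 0.0115). Psmc3 rose in both Pum2 comparisons (0.35 and 0.30, adjusted p = 0.0163 and 0.0305). Psmc6 was the exception: it gave -0.061 over IgG (adjusted p = 0.65) and fell against input by 0.45 ± 0.08 with Pum2 and 0.39 ± 0.08 with IgG (adjusted p = 0.00186 and 0.00976). Psmc1 was not called in Pum2 over IgG with named-gene quantile normalization or centring (0.21 to 0.24). Psmc2 was not called in Pum2 over input with the mean of its features (0.37). Psmc3 was not called in Pum2 over IgG without IgG replicate 2 or Pum2 replicate 3, or with named-gene quantile normalization or centring (0.23 to 0.31), or in Pum2 over input without input replicate 2 or any 1 of the Pum2 arrays, or with named-gene quantile normalization, centring or every feature tested (0.22 to 0.32). Psmc4 was not called in Pum2 over input without any 1 of the input arrays or Pum2 replicate 1 or 3, or with centring or every feature tested (0.22 to 0.32), or in IgG over input without input replicate 1 or 3 or IgG replicate 2, or with whole-table quantile normalization, named-gene quantile normalization or every feature tested (-0.35 to -0.27). Psmc5 was not called in IgG over input without any 1 of the input arrays or IgG replicate 1 or 2, or with the 2-group fit, whole-table quantile normalization, named-gene quantile normalization or centring (-0.30 to -0.21), and was called in Pum2 over input with whole-table quantile normalization (0.21).

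Among the roles, which hold only genes that met the naming rule, the 11 non-ATPase base and lid genes had the highest median over input. The lid gene Sem1, whose symbol does not meet that rule, is not among the 11. Sem1 was called lower than input with Pum2, and the ranking was not computed with it included. Of the 11, 8 rose and 1 fell with Pum2 against IgG (median 0.40), and 5 rose and 1 fell against input (median 0.30). In IgG over input 1 rose and 1 fell (median -0.12). Psmd3, a lid subunit, measured 10.18, 10.15 and 10.23 on the input arrays, 10.18, 9.87 and 10.14 on the IgG arrays and 10.66, 10.66 and 10.71 on the Pum2 arrays. Psmd13, another lid subunit, measured 9.24, 9.22 and 9.08 on the input arrays, 9.31, 9.21 and 9.31 on the IgG arrays and 9.78, 9.65 and 9.74 on the Pum2 arrays. Psmd2, a scaffold of the base that docks ubiquitin-like domains, measured 10.98, 10.86 and 10.92 on the input arrays, 10.93, 10.89 and 10.98 on the IgG arrays and 11.38, 11.24 and 11.41 on the Pum2 arrays. In all 3 genes the Pum2 arrays lay above all 6 others, which overlapped. Their rises over IgG were 0.61 ± 0.09, 0.45 ± 0.08 and 0.41 ± 0.08 (adjusted p = 5.22e-04, 0.00134 and 0.00221), and over input 0.49 ± 0.09, 0.54 ± 0.08 and 0.43 ± 0.08 (adjusted p = 0.0016, 3.00e-04 and 0.00132). Psmd1, the other large scaffold of the base, rose by 0.33 against IgG and 0.48 against input (adjusted p = 0.00558 and 4.32e-04). These 4 genes are the ones whose rises over both controls were called under every alternative run.

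The lid also held genes that fell. Psmd11 measured 10.95, 10.84 and 10.95 on the input arrays, 11.30, 11.32 and 11.36 on the IgG arrays and 10.98, 10.87 and 11.00 on the Pum2 arrays. Its IgG arrays were the high ones, above both other groups, so it fell by 0.38 ± 0.07 in Pum2 over IgG (adjusted p = 0.00264), rose by 0.41 ± 0.07 in IgG over input (adjusted p = 0.00315) and stood at 0.036 over input (adjusted p = 0.752). Psmd8 fell against input in both precipitates, by 0.61 ± 0.08 with Pum2 and 0.47 ± 0.08 with IgG (adjusted p = 1.22e-04 and 0.00205), and gave -0.14 between them (adjusted p = 0.193). Psmd14, whose product cuts ubiquitin chains from substrates, gave -0.0046 over IgG (adjusted p = 0.982) and -0.14 over input (adjusted p = 0.361). Psmd4, a ubiquitin receptor, rose over IgG by 0.54 ± 0.13 (adjusted p = 0.0101) and stood at 0.36 over input (adjusted p = 0.0567). Psmd12, Psmd6 and Psmd7 rose over IgG by 0.40, 0.41 and 0.33 (adjusted p = 0.00492, 0.0167 and 0.0121), and of these Psmd12 alone rose over input (0.30, adjusted p = 0.018). Psmd12 was not called in Pum2 over input without Pum2 replicate 3, or with named-gene quantile normalization or centring (0.23 to 0.27). Psmd4 was called in Pum2 over input without IgG replicate 2 or Pum2 replicate 2, or with whole-table quantile normalization (0.36 to 0.46). Psmd6 was not called in Pum2 over IgG without Pum2 replicate 3, or with named-gene quantile normalization or centring (0.29 to 0.35), and was called in IgG over input without IgG replicate 1 (-0.40). Psmd7 was not called in Pum2 over IgG with named-gene quantile normalization or centring (0.22 to 0.24). Psmd8 was called in Pum2 over IgG with named-gene quantile normalization (-0.27).

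Psmd5, Psmd9 and Psmd10 encode chaperones that help to build the base and are absent from the finished particle. All 3 rose over IgG, and 1 rose over input. Psmd10 measured 9.36, 9.39 and 9.24 on the input arrays, 8.94, 8.58 and 8.86 on the IgG arrays and 9.54, 9.55 and 9.76 on the Pum2 arrays. It was 1.77-fold higher with Pum2 than with IgG (0.82 ± 0.11, adjusted p = 2.82e-04), with IgG 0.53 ± 0.11 below input (adjusted p = 0.00689) and Pum2 at 0.29 over input (adjusted p = 0.0645). Psmd5 measured 9.76, 9.72 and 9.75 on the input arrays, 9.65, 9.65 and 9.71 on the IgG arrays and 9.97, 9.97 and 9.91 on the Pum2 arrays. Psmd9 measured 8.27, 8.20 and 8.13 on the input arrays, 8.01, 8.24 and 7.96 on the IgG arrays and 8.26, 8.47 and 8.36 on the Pum2 arrays. The Pum2 arrays lay above the IgG arrays in both, by 0.28 ± 0.07 and 0.29 ± 0.09 (adjusted p = 0.00818 and 0.0385), and above input in Psmd5, by 0.20 ± 0.07 (adjusted p = 0.0342). Psmd10 was called in Pum2 over input without IgG replicate 2 (0.29). Psmd5 was not called in Pum2 over IgG with named-gene quantile normalization or centring (0.17 to 0.18), or in Pum2 over input without any 1 of the input arrays or Pum2 replicate 1 or 2, or with named-gene quantile normalization or centring (0.13 to 0.21). Psmd9 was not called in Pum2 over IgG without input replicate 2, IgG replicate 1 or 3 or Pum2 replicate 2 or 3, or with the 2-group fit, named-gene quantile normalization, centring or every feature tested (0.19 to 0.29).

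Among the 4 activator genes and the inhibitor gene Psmf1, 3 rose over IgG (median 0.35). Against input 1 fell and 0 rose in limma, with 1 higher at an unadjusted p below 0.05 (median 0.034, or -0.036 with centring). Psmf1 measured 7.29, 7.15 and 7.41 on the input arrays, 7.12, 6.99 and 7.03 on the IgG arrays and 7.44, 7.44 and 7.49 on the Pum2 arrays. Psme1, which with Psme2 encodes the interferon-induced activator, measured 8.34, 8.45 and 8.49 on the input arrays, 8.33, 8.11 and 8.28 on the IgG arrays and 8.51, 8.68 and 8.70 on the Pum2 arrays. In both, Pum2 was highest and IgG lowest with no overlap of the groups, and the rises over IgG were 0.41 ± 0.08 and 0.38 ± 0.09 (adjusted p = 0.00345 and 0.00807), while those over input did not pass (0.18 and 0.20, adjusted p = 0.127 and 0.114). Psme2 measured 8.58, 8.77 and 8.47 on the input arrays, 7.88, 7.75 and 8.21 on the IgG arrays and 8.28, 8.36 and 8.26 on the Pum2 arrays. Its input arrays were highest and its IgG arrays lowest, with 0.35 ± 0.12 over IgG (adjusted p = 0.0496) and -0.66 ± 0.12 for IgG over input (adjusted p = 0.00429). Psme4, an activator found in the nucleus, measured 9.97, 10.13 and 10.04 on the input arrays, 10.21, 10.36 and 10.32 on the IgG arrays and 10.13, 10.05 and 10.06 on the Pum2 arrays. It stood at -0.21 over IgG (adjusted p = 0.0568) and rose by 0.25 ± 0.08 in IgG over input (adjusted p = 0.0471). Psme3, the nuclear activator that needs no ubiquitin, fell by 0.40 ± 0.09 against input (adjusted p = 0.00443) and gave -0.15 over IgG (adjusted p = 0.248). Psme1 was not called in Pum2 over IgG with named-gene quantile normalization (0.28). Psme2 was not called in Pum2 over IgG without input replicate 1 or 3, IgG replicate 1 or 2 or any 1 of the Pum2 arrays, or with the 2-group fit, named-gene quantile normalization, centring or every feature tested (0.26 to 0.37), and was called in Pum2 over input without IgG replicate 3, or with named-gene quantile normalization or centring (-0.38 to -0.31). Psme3 was called in Pum2 over IgG with named-gene quantile normalization (-0.27), and in IgG over input without Pum2 replicate 3 (-0.25). Psme4 was not called in IgG over input without input replicate 1 or 3, IgG replicate 2 or 3 or any 1 of the Pum2 arrays, or with the 2-group fit or every feature tested (0.21 to 0.25), and was called in Pum2 over IgG without IgG replicate 1, or with whole-table quantile normalization, named-gene quantile normalization or centring (-0.32 to -0.26). Psmf1 was called in Pum2 over input with whole-table quantile normalization (0.31), and in IgG over input without input replicate 2 (-0.30).

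The 4 core assembly genes had the lowest median of the roles in IgG over input, where 3 fell (median -0.53), and 3 were higher with Pum2 than with IgG (median 0.49), while against input 2 fell and 0 rose in limma (median -0.21), with 1 higher at an unadjusted p below 0.05. Psmg4 measured 9.99, 10.26 and 9.96 on the input arrays, 9.12, 9.26 and 8.98 on the IgG arrays and 9.81, 10.01 and 9.82 on the Pum2 arrays. Psmg3, its partner in the assembly chaperone, measured 9.51, 9.48 and 9.47 on the input arrays, 8.84, 8.66 and 8.73 on the IgG arrays and 9.18, 9.22 and 9.38 on the Pum2 arrays. The IgG arrays of both lay below all others, by 0.95 ± 0.11 and 0.75 ± 0.08 under input (adjusted p = 3.74e-04 and 2.97e-04), and Pum2 rose over IgG by 0.76 ± 0.11 and 0.51 ± 0.08 (adjusted p = 4.54e-04 and 8.29e-04). Psmg3 still lay below input with Pum2 (-0.23 ± 0.08, adjusted p = 0.0481), so it was called in opposite directions against the 2 controls. Psmg2 measured 9.52, 9.52 and 9.51 on the input arrays, 9.40, 9.25 and 9.20 on the IgG arrays and 9.73, 9.93 and 9.56 on the Pum2 arrays. It rose by 0.46 ± 0.10 over IgG (adjusted p = 0.00539), while its dimmer feature gave -0.16 ± 0.17, so its features disagree. Psmg1, the partner of Psmg2, measured 9.63, 9.72 and 9.63 on the input arrays, 9.38, 9.31 and 9.33 on the IgG arrays and 9.30, 9.28 and 9.47 on the Pum2 arrays. It did not separate the precipitates (0.0066, adjusted p = 0.964) and both lay below input, by 0.31 ± 0.08 with Pum2 and 0.32 ± 0.08 with IgG (adjusted p = 0.00948 and 0.0167). Psmg1 was not called in IgG over input without input replicate 2 or IgG replicate 2 (-0.30 to -0.29). Psmg2 was not called in Pum2 over IgG with the mean of its features (0.15), and was called in Pum2 over input without Pum2 replicate 3 (0.31). Psmg3 was not called in Pum2 over input without any 1 of the input arrays, IgG replicate 3 or Pum2 replicate 1 or 2, or with the 2-group fit or every feature tested (-0.24 to -0.19).

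Of the partner-named genes, Psmc3ip measured 9.37, 9.52 and 9.21 on the input arrays, 8.60, 8.50 and 8.42 on the IgG arrays and 8.89, 8.88 and 8.81 on the Pum2 arrays. Its groups were fully separate, with input highest and IgG lowest, and it too was called in opposite directions, 0.35 ± 0.09 over IgG (adjusted p = 0.0139) and -0.51 ± 0.09 over input (adjusted p = 0.00145). Psme3ip1 measured 11.58, 11.64 and 11.57 on the input arrays, 11.50, 11.33 and 11.42 on the IgG arrays and 11.55, 11.55 and 11.62 on the Pum2 arrays. Pum2 stood at 0.16 over IgG and -0.022 over input, and IgG at -0.18 over input, which did not pass the test (adjusted p = 0.133, 0.85 and 0.121). Psmc3ip was not called in Pum2 over IgG without IgG replicate 3, or with named-gene quantile normalization or centring (0.24 to 0.31).

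**Figure D4:**
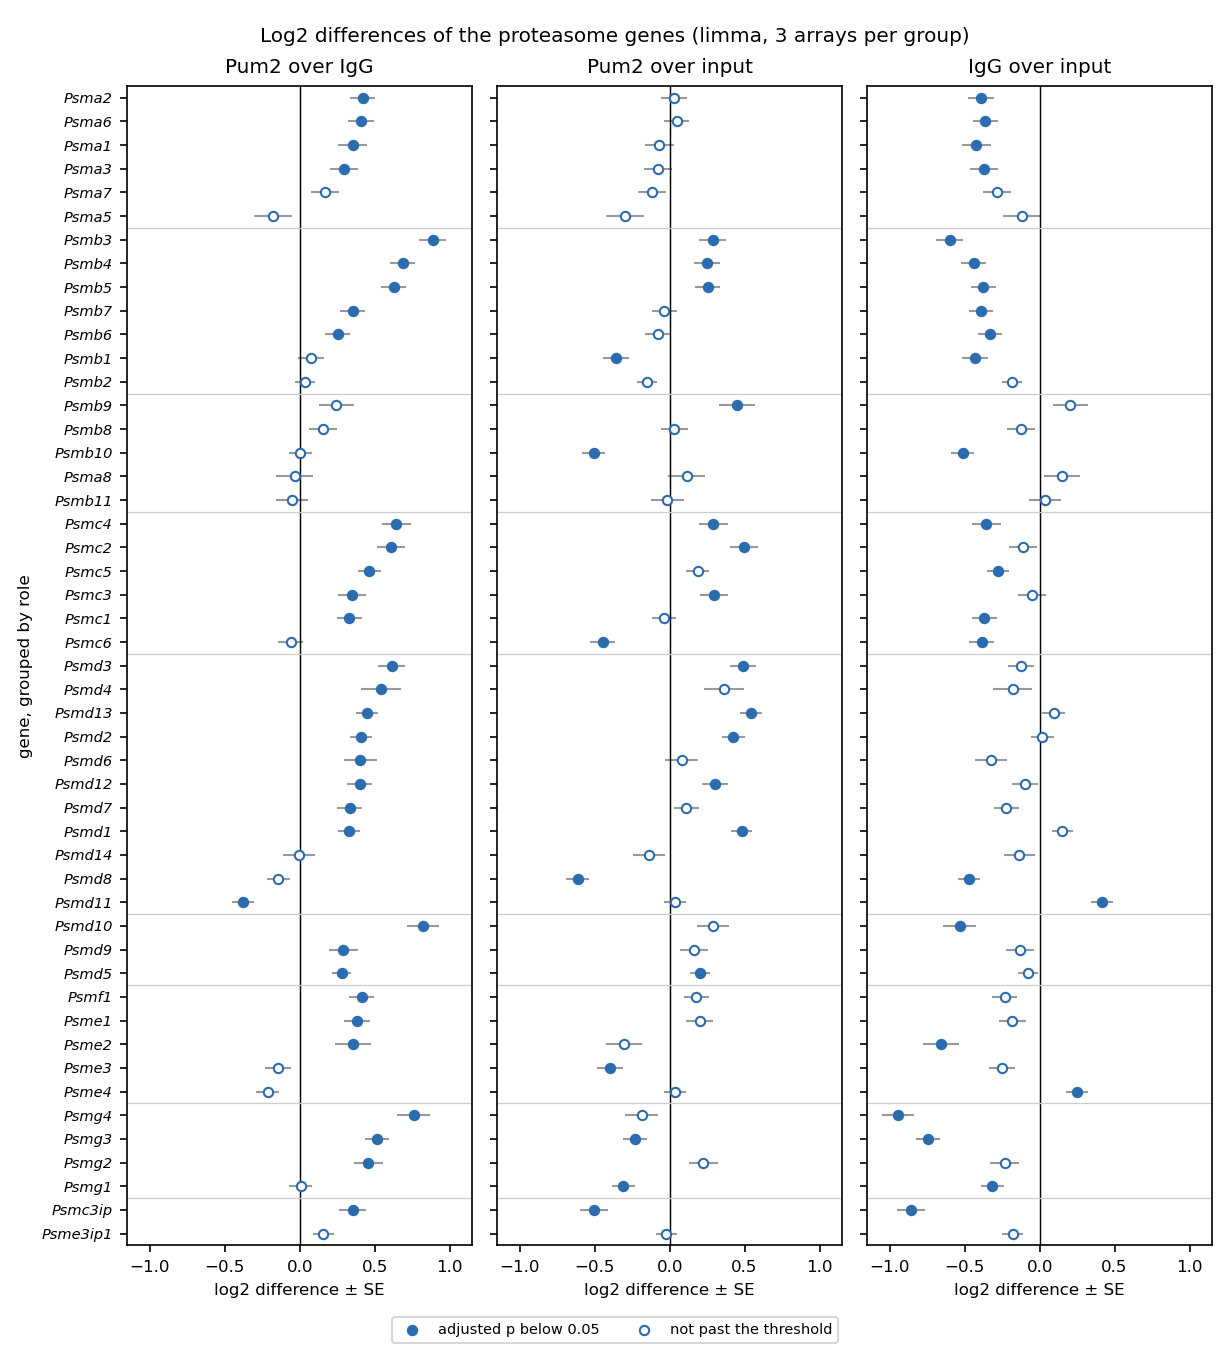
Log2 difference and its standard error (horizontal axis) for each of the 49 genes (vertical axis), with 1 panel each for Pum2 over IgG, for Pum2 over input and for IgG over input; filled points passed an adjusted p of 0.05, open points did not, and lines separate the roles. Filled points lie to the right of 0 in the first panel except Psmd11 at -0.38, on both sides in the second, and to the left of 0 in the third except Psmd11 and Psme4.

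The genes that work with the proteasome were taken from a list of 33, of which 23 were measured by a feature of their own. In Pum2 over IgG 10 of the 23 rose and 0 fell (median 0.18), against input 9 rose and 2 fell (median 0.21), and in IgG over input 2 rose and 5 fell (median -0.014). The share that rose was 43.5% over IgG, beside 19.4% of all genes and 34.1% of those at or above the median level, and 39.1% over input, beside 21.6% and 37%. The 0 falls over IgG stand beside 11.4% and 18%, and 8.7% fell against input with Pum2, beside 13.1% and 21.9%. In IgG over input 8.7% rose, beside 8.25% and 13.8%, and 21.7% fell, beside 9.72% and 17.8%. At an unadjusted p below 0.05, 2 of the 23, Sem1 and Uchl5, were lower with Pum2 than with IgG, and they were called so without Pum2 replicate 3 (-0.30 and -0.40) and under each of the 3 scalings (-0.32 to -0.28 and -0.40 to -0.35), where 2 or 3 of the list fell. The largest rise was that of Ubqln4, a shuttle that carries ubiquitylated proteins to the proteasome, which measured 10.02, 10.02 and 9.99 on the input arrays, 9.60, 9.74 and 9.65 on the IgG arrays and 10.84, 11.02 and 10.70 on the Pum2 arrays. It was 2.29-fold higher than with IgG (1.19 ± 0.09, adjusted p = 1.20e-05) and 1.79-fold higher than input. Txnl1, a thioredoxin bound to the regulatory particle, measured 11.72, 11.69 and 11.72 on the input arrays, 11.29, 11.39 and 11.33 on the IgG arrays and 12.31, 12.27 and 12.17 on the Pum2 arrays, and stood 0.91 ± 0.07 above IgG and 0.54 ± 0.07 above input (adjusted p = 1.31e-05 and 1.83e-04). In both genes the Pum2 arrays lay above all 6 others. Zfand5 and Usp14, a deubiquitylase of the regulatory particle, rose over IgG by 0.55 ± 0.08 and 0.53 ± 0.11 (adjusted p = 6.89e-04 and 0.00386), as did the shuttle gene Ubqln1 by 0.40 ± 0.07 (adjusted p = 0.00119) and Ngly1, the deglycosylase that activates the Nfe2l1 protein, by 0.53 ± 0.11 (adjusted p = 0.00412).

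Sem1, the smallest lid subunit, fell against input in both precipitates, by 1.00 ± 0.09 with Pum2 and 0.78 ± 0.09 with IgG (adjusted p = 1.72e-05 and 3.99e-04), and gave -0.22 between them (adjusted p = 0.0922). Uchl5, the other deubiquitylase of the regulatory particle, fell by 0.98 ± 0.10 and 0.69 ± 0.10 in the same comparisons (adjusted p = 4.06e-05 and 0.00135), and gave -0.29 between the precipitates (adjusted p = 0.0539). It was chosen for its contrast with Usp14 after the values were seen. Pomp, which matures the core, gave 0.18 over IgG (adjusted p = 0.216) and -0.25 over input (adjusted p = 0.0772) and fell by 0.43 ± 0.10 in IgG over input (adjusted p = 0.0131). Pomp was called lower than input with Pum2 without Pum2 replicate 3 (-0.33) and with named-gene quantile normalization or centring (-0.32 to -0.30). Nfe2l1 itself measured 8.75 ± 0.049 in input, 8.80 ± 0.007 in IgG and 8.87 ± 0.13 in Pum2 arrays (mean ± SD, n = 3). Its Pum2 arrays overlapped both other groups, with 0.070 over IgG (adjusted p = 0.568) and 0.12 over input (adjusted p = 0.307).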

How the data were processed

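RNA from 3 input, 3 IgG and 3 Pum2 samples was hybridised to Mouse Gene 2.0 ST arrays. The deposited values are log2 signals that the authors made with RMA in Affymetrix Expression Console, per the submitters' processing notes; their versions: not given in the sources used here. RMA includes a normalization of the arrays to one distribution, so values are relative to the other RNA of an array. The deposited signals did not share a distribution exactly. Quantile normalization of the whole table run again moved the median of all genes in Pum2 over IgG from 0.043 to 0.19. Of 41345 features, 23521 carried 1 gene symbol in the platform annotation, 1814 several and 16010 none; the feature with the highest mean over 9 arrays stood for each of 22180 genes. One limma (3.58.1, R 4.3.3) fit held all 9 arrays in 3 groups, with no block, no filter and no pseudocount, and genes with a Benjamini-Hochberg adjusted p under 0.05 were called. With 3 arrays a group an exact permutation test could not go below 0.1, so none was used. Genes with values on every array were the 4 with the largest moderated t of Pum2 over IgG in each role, and those called in opposite directions; others are named as the rest of a role. The members and the gene lists were chosen with earlier results of these data known. Tested on simulated data of 22180 genes for Pum2 over IgG, the fit recovered 41% of 100 shifts of 0.5 and 82% of 100 shifts of 1, with 6 false calls. Same-numbered arrays of different groups correlated at 0.0015 to 0.1351 in their deviations from the group means, with 3 of 9 pairs over 0.1, and 8 of 9 arrays correlated best with their own number. These values do not exclude that numbers pair the samples. The labels do not state a pairing, so the main fit has no block, and a fit with the replicate number as a block is given as an alternative. Alternatives were the fit's samples, prior, filter, block, scaling, choice of feature and each array left out; named-gene quantile normalization, and the alternatives for genes that are not members, were chosen after seeing the data.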

Additional observations from a re-analysis of the deposited data

How the results depend on the processing

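The deposited counts were 32 higher and 1 lower proteasome genes in Pum2 over IgG, 13 and 8 in Pum2 over input, and 2 and 22 in IgG over input. Leaving out 1 array at a time gave 25 to 30 higher, 1 to 2 lower and a median of 0.29 to 0.37 in Pum2 over IgG; 7 to 15 higher, 7 to 8 lower and a median of 0.024 to 0.077 in Pum2 over input; and 1 to 2 higher, 17 to 23 lower and a median of -0.29 to -0.21 in IgG over input. With named-gene quantile normalization 20 rose and 4 fell in Pum2 over IgG, and with centring on the brighter genes 21 rose and 2 fell. Centring left 6 higher in Pum2 over input and turned its median to -0.034. It takes 1 value from every gene of an array, so the median of all genes moved alike, from 0.065 to -0.0054. The count of 1 lower in Pum2 over IgG was 2 with the brighter genes alone, with an intensity trend and robust prior, and with whole-table quantile normalization. The count of 2 higher in IgG over input was 1 with the replicate block, with only the compared groups in the fit, and with every feature tested. With the replicate number as a block, 29 rose and 1 fell in Pum2 over IgG, 12 and 8 in Pum2 over input, and 1 and 23 in IgG over input; calls ended for Psma3, Psmb6 and Psme2 in the first, Psmb4, Psmd5 and Psmg3 in the second and Psme4 in the third, and calls were added for Psma5 and Psmd4 in the second and Psmd6 in the third, while 8 of 9 arrays correlated best with their own number, a hint from the data and not from the design. Other combinations of these counts and medians kept their direction and stayed within 1.5 times the deposited value or within the replicate spread. Calls lost with fewer arrays were tested on fewer samples. The number of arrays limits precision: on simulated data 41% of shifts of 0.5 were recovered, and smaller shifts were not simulated. Those data held 100 shifts of each size, where 4296 genes rose and 2519 fell in the real Pum2 over IgG comparison. The adjusted threshold was thus stricter there, and the share recovered does not carry over to these calls. Psmd1, for example, was called at 0.33 over IgG.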
